A study of Rattus norvegicus with 18 samples.

Results

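The genes described here are 37 named genes of glycolysis and of the response to low oxygen, measured in rat spinal cord material given BMP (bone morphogenetic protein) or CNTF (ciliary neurotrophic factor). They were chosen by name, with earlier results of these data known, so the shares of members called below only describe this list. The list holds 17 glycolytic enzymes, 4 glucose and lactate transporters, 6 regulators of flux through the pathway, and 10 hypoxia targets and oxygen sensors. Each gene was read from its brightest probe set, the one with the highest mean over 18 arrays, among the probe sets whose platform annotation gives that gene alone. Of the 37 genes, 36 had such a probe set and 35 were tested, of 14217 named genes tested in the series. Gapdh was carried singly by Affymetrix control probe sets only, so its levels are given without a test. Pkm was annotated only together with a pseudogene symbol and was not valued.

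Glycolysis splits glucose to pyruvate in the cytosol, and lactate dehydrogenase exchanges pyruvate with lactate. When oxygen is low, the prolyl hydroxylases encoded by Egln1 and Egln3 no longer mark the transcription factor HIF-1 for destruction, and HIF-1 raises many glycolytic genes together with Vegfa, Bnip3 and others. In the central nervous system, glia are known for high glycolytic activity and for passing lactate to neurons.

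The series held 6 control arrays, 6 arrays of samples given 10 ng/mL BMP for 4 days, and 6 of samples given 10 ng/mL CNTF for 4 days. The labels give spinal cord as the source of all 18 and name no time for the controls, no BMP family member, no strain and no cell type. The control arrays are described as "14 NT control", and the labels do not explain "14 NT", which is not interpreted here. Each title carries a number from 1 to 6, and each number has 1 array of each group. The labels do not tie the 6 arrays of a group to separate cultures or animals, and the p-values therefore describe only how far these arrays spread, which may be technical spread. The deposited values are intensities on a linear scale, and all levels below are log2(intensity + 116.655), where the constant is the 20th percentile of the table. Differences are differences of the group means on that scale, which understates changes of dim probe sets, and are given ± the standard error (SE). No detection calls were used, so a dim level cannot be told from background.

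Differences were tested with limma over 31042 probe sets, with p-values adjusted by Benjamini-Hochberg over all of them, and a gene was called at an adjusted p under 0.05. The first fit used the group means alone. A further fit added the title number as a block, which compares same-numbered arrays. The median intensity of an array lay between 666.5 and 817.2. The 4 measured Hox genes of the spinal cord list had control levels from 10.86 to 13.86, and the forebrain gene Emx2 lay between 6.94 and 7.95. The microglial markers were dim in all groups, with a summed intensity of 717 to 1064 in controls, 589 to 933 with BMP and 750 to 1147 with CNTF. The 3′ minus 5′ difference of the Gapdh control probe sets was 0.12 to 0.21 in controls, 0.09 to 0.19 with BMP and 0.12 to 0.21 with CNTF. It was larger for beta-actin, at 0.51 to 0.82, 0.44 to 0.87 and 0.43 to 0.81 in the same order. For hexokinase it was largest, at 0.98 to 1.82, 0.88 to 1.80 and 0.77 to 1.46. The groups overlapped for each of these genes in this sign of RNA quality.

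With BMP, glycolytic enzymes and hypoxia targets were mostly lower than in controls. Without the block, 4 of the 35 genes fell (Vegfa, Eno2, Egln1 and Bnip3), against 2.57% of all probe sets called lower. None of the 35 rose in that limma fit, against 3.44% of all probe sets, and 2 were higher at an unadjusted p under 0.05. With the title number as a block, 21 of the 35 were called lower, against 7.58% of all probe sets, and 2 were called higher (Pfkm and Pdk4), against 9.1%. The difference was negative in 6 of 6 same-numbered pairs for 18 genes, against 8.37% of all probe sets, and positive in 6 of 6 for 2 genes, against 9.51%. Bright probe sets were called more often: among the 15813 at or above the table's median level, 12.9% were called lower with the block and 13.4% were lower in 6 of 6 pairs. Of the 32 members that bright, 20 were called lower with the block. In the same BMP arrays the summed intensity of 5 oligodendrocyte precursor markers was also lower, at 10176 to 71755 beside 78616 to 112868 in controls and 59224 to 88459 with CNTF. The median sum of oligodendrocyte markers was lower too, at 37040 beside 128976 in controls. Median sums were higher for astrocyte markers (181203 beside 127547), neuronal markers (20333 beside 11980) and fibroblast and smooth muscle markers (11467 beside 3505). What part these shifts had was not tested.

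With CNTF, the difference from control was negative for 29 of the 35 genes, with a median of -0.17. Without the block, 2 of the 35 rose (Ndrg1 and Pfkfb3), against 1.58% of all probe sets. None fell in that limma fit, against 0.738%, and 3 were lower at an unadjusted p under 0.05. With the block, 3 were called higher (Ndrg1, Pfkfb3 and Egln3), against 4.19%, and 6 (17.1%) were called lower (Gpi, Pfkm, Aldoa, Ldhb, Pdk1 and Vegfa), against 3.38%. In all 6 pairs, 9 genes were lower, against 7.31%, and 3 were higher, against 7.18%. Both treatments were set against the same 6 control arrays.

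Set directly against CNTF, BMP samples held lower levels of Eno2, Pfkfb3 and Ndrg1, or 3 of 35 against 2.99% of all probe sets, and a higher level of Pfkm, or 1 of 35 against 3.24%. With the block, 17 were lower with BMP than with CNTF, against 6.93%, and 3 were higher (Pfkm, Pdk2 and Pdk4), against 8.17%. In all 6 pairs, 16 genes were lower with BMP, against 8.26%, and 3 were higher, against 9.75%.

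**Figure D1:**
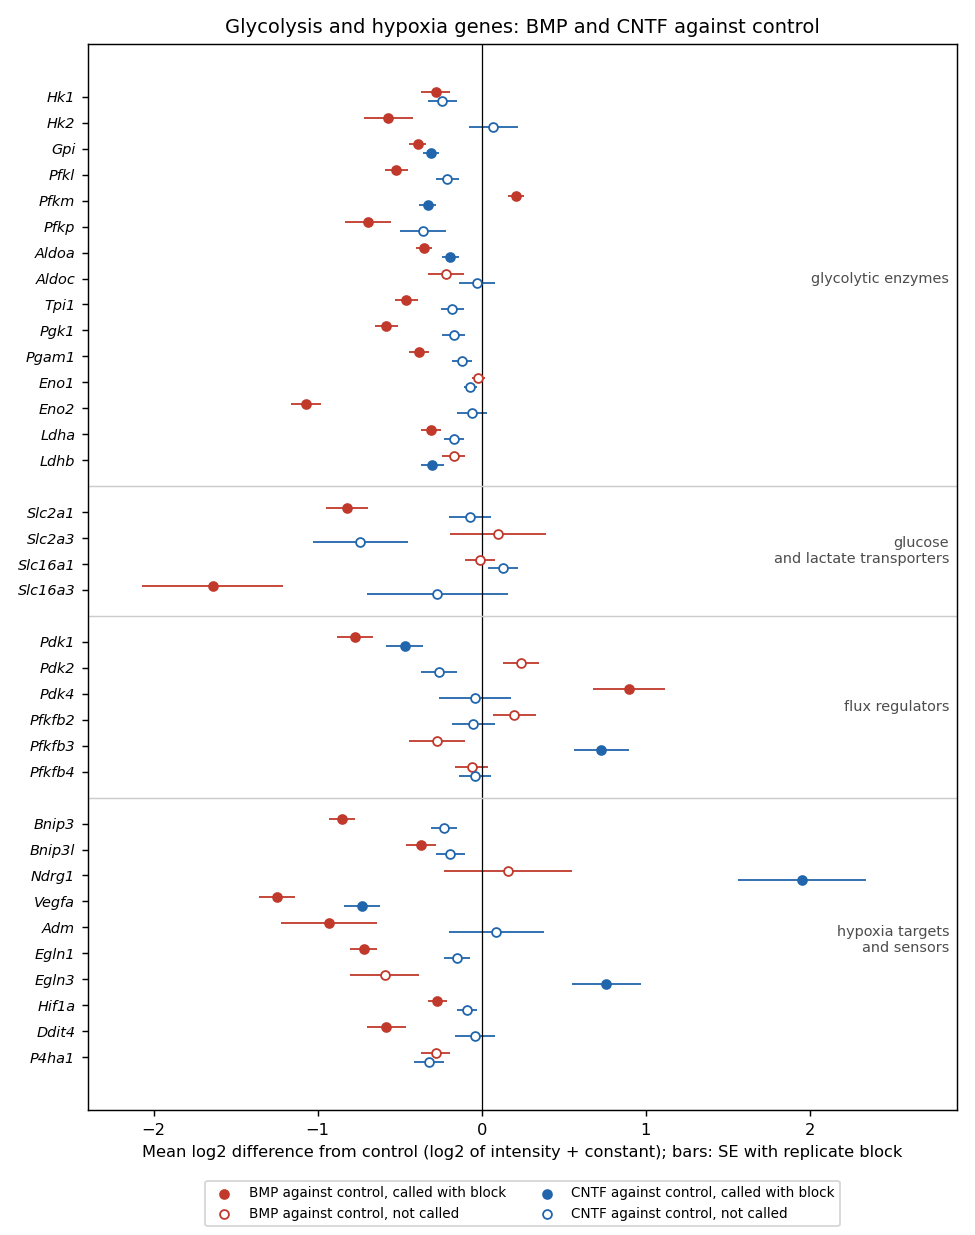
Mean log2 difference from control of the 35 tested genes, for BMP (red) and CNTF (blue), by role; bars are the SE with the title number as a block, and filled points were called in that fit at an adjusted p under 0.05. The red points lie mostly left of 0 among enzymes and hypoxia targets, with Pfkm and Pdk4 the 2 filled red points on the right, and the blue point of Ndrg1 lies farthest right at 1.95.

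Among the 15 enzymes tested, the median difference with BMP was -0.38, beside 0.01 over all probe sets. One enzyme fell without the block (Eno2), against 2.57% of all probe sets. With the block 11 (73.3%) were called lower, against 7.58% of all probe sets and 12.9% of those at or above the table median. With it 1 was called higher, against 9.1% of all probe sets. The enolase encoded by Eno2, the form typical of neurons, had control levels from 12.19 to 13.73 with a median of 13.02. With BMP the 6 arrays lay between 11.58 and 12.59, median 11.82, and with CNTF between 12.30 and 13.44, median 13.01. Only the brightest BMP array, number 5, reached into the control range, while the CNTF arrays all lay within it. The BMP difference was -1.07 ± 0.23 (6 arrays a group, adjusted p = 0.00701, limma), and the 6 pair differences ran from -1.44 to -0.51. The call remained without any single array, with an adjusted p of at most 0.0206. Against CNTF the difference was -1.01 ± 0.23 (adjusted p = 0.00947, limma), which became 0.0538 when all 3 arrays of number 3 were left out. Eno1, the widespread enolase, went from a control median of 16.65 to 16.58 with BMP and 16.60 with CNTF. Its BMP difference was -0.02 ± 0.12, with 3 pairs higher and 3 lower, and it was not called in either fit.

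The phosphofructokinase subunits, which carry out the committed step of glycolysis, went different ways. The muscle-type subunit Pfkm had control levels from 12.98 to 13.40, median 13.18. With BMP it lay between 13.18 and 13.65, median 13.42, and with CNTF between 12.70 and 13.09, median 12.85. The BMP and CNTF arrays did not overlap, and the control range overlapped both. Pfkm was higher with BMP than with CNTF by 0.53 ± 0.10 (adjusted p = 0.00259, limma), and 6 of 6 pairs were higher by 0.41 to 0.80. When all probe sets of Pfkm were averaged, this difference was 0.32 and was no longer called (adjusted p = 0.0513, limma). Against control it was higher with BMP and lower with CNTF, with differences of 0.21 and -0.33 and adjusted p of 0.0154 and 0.00169 with the block (limma). The BMP call with the block was lost when all arrays of number 3 were left out (0.18, adjusted p = 0.0664, limma). A second Pfkm probe set gave 0.25 and -0.26 (0.016 and 0.0229 with the block, limma), and the dim one gave 0.03 and 0.14.

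The liver-type subunit Pfkl had control levels from 12.71 to 13.34 and BMP levels from 12.14 to 13.14, overlapping. Its BMP difference was -0.52 ± 0.07 with the block (adjusted p = 0.000181, limma). The platelet-type subunit Pfkp ranged from 13.37 to 14.55 in controls and from 12.22 to 13.80 with BMP, a difference of -0.69 ± 0.14 with the block (adjusted p = 0.00278, limma). Without the block neither was called (adjusted p = 0.121 and 0.109). Both were lower in 6 of 6 pairs, while Pfkm was higher in 6 of 6.

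Phosphoglycerate kinase, encoded by Pgk1, makes the first ATP of the pathway. Its control levels ran from 15.04 to 16.21, median 15.82, its BMP levels from 14.38 to 15.90, median 15.21, and its CNTF levels from 14.83 to 16.22, median 15.76. The groups overlapped widely, yet each BMP array was dimmer than its same-numbered control, with differences from -0.97 to -0.31. The SE of the BMP difference was 0.28 without the block and 0.07 with it, so that a difference of -0.58 missed the threshold in the first fit (adjusted p = 0.271, limma) and passed it in the second (6.13e-05, limma). Its second bright probe set gave -0.61 (adjusted p = 0.000128 with the block, limma).

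Most other enzymes behaved like Pgk1: called lower with BMP only with the block. Gpi, which turns glucose 6-phosphate into fructose 6-phosphate, was lower with BMP in each pair, with a difference of -0.39 ± 0.05 with the block. Tpi1, which interconverts the triose phosphates, differed by -0.46 ± 0.07 and Aldoa, the aldolase that splits the phosphorylated sugar, by -0.35 ± 0.05. Pgam1, the phosphoglycerate mutase, differed by -0.38 ± 0.06 and Ldha, the lactate dehydrogenase subunit that favours lactate, by -0.31 ± 0.06. For these 5 the adjusted p with the block ran from 8.4e-05 for Gpi to 0.0036 for Ldha (limma), and all were lower in 6 of 6 pairs. None of the 5 was called without the block, where their adjusted p ran from 0.0938 for Tpi1 to 0.378 for Ldha. The hexokinases commit glucose to the cell: Hk2 ranged from 9.13 to 10.50 in controls and from 8.61 to 10.01 with BMP, and Hk1 from 13.10 to 13.94 and from 12.56 to 13.62. Both were lower in 5 of 6 pairs, with adjusted p of 0.0189 for Hk2 and 0.0476 for Hk1 with the block (limma). The Hk1 call was kept in 2 of 18 leave-outs of an array with the block, those of control array 3 and BMP array 3, and otherwise lost (adjusted p up to 0.128), and that of Hk2 was lost without BMP array 3 or 5 or control array 6 (adjusted p = 0.0581, 0.0543 and 0.0516, limma).

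A further 3 tested enzymes were called with BMP in neither fit. Besides Eno1 these were Aldoc, the brain aldolase, with -0.22 ± 0.18, and Ldhb, the subunit that favours pyruvate, with -0.17 ± 0.15. Gapdh, read from its control probe set and not tested, ranged from 16.44 to 16.87 in controls, from 16.24 to 16.75 with BMP and from 16.38 to 16.75 with CNTF, and BMP was lower in 5 of 6 pairs. With CNTF the enzymes' median difference was -0.18, beside -0.01 over all probe sets. No enzyme was called in either direction without the block, where 1 was lower at an unadjusted p under 0.05 (limma). With it 4 (26.7%) were lower, against 3.38% of all probe sets and 5.72% of those at or above the table median. These were Gpi (-0.31), Pfkm (-0.33), Aldoa (-0.19) and Ldhb (-0.30). The Aldoa call was lost without control array 3 or 6 or CNTF array 2, 5 or 6 (adjusted p up to 0.0654), and the Ldhb call without control array 2 or CNTF array 2, 3 or 6 (up to 0.0513).

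**Figure D2:**
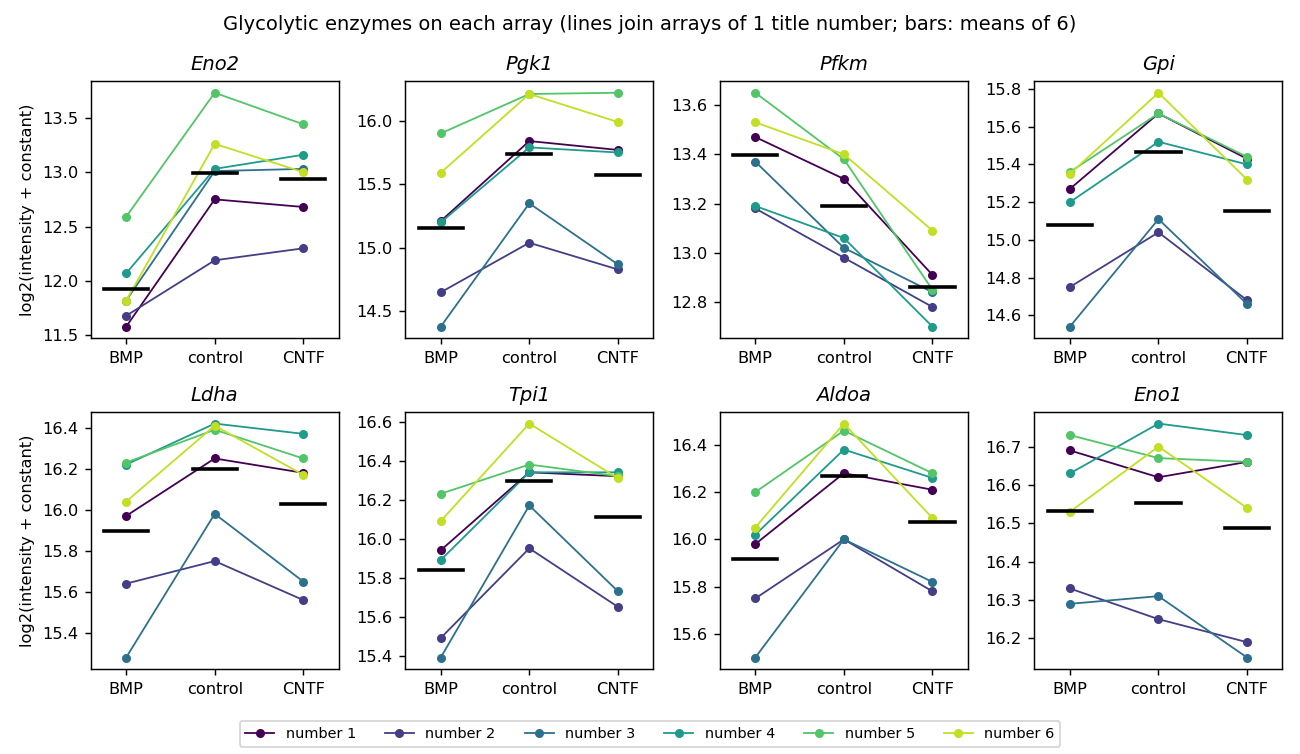
Levels of 8 glycolytic enzymes, log2(intensity + constant), on each of 18 arrays; each line joins the BMP, control and CNTF array of 1 title number, and black bars are means of 6. Lines of numbers 2 and 3 run low in most panels, and most lines drop from control towards BMP; the Eno2 lines fall most, and the Pfkm lines go up towards BMP.

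The transporters were mixed. Slc2a1, the GLUT1 glucose transporter of glia and the blood-brain barrier, ranged from 11.84 to 13.68 in controls, median 13.31, from 11.53 to 12.44 with BMP, median 12.33, and from 11.99 to 13.60 with CNTF, median 12.97. Control arrays 2 and 3 lay among the BMP arrays, and the other 4 controls lay above them all. The BMP difference of -0.82 missed the threshold without the block (SE 0.31, adjusted p = 0.134, limma) and passed it with the block (SE 0.13, adjusted p = 0.000378). Without control array 2 it was called in the first fit too, at -1.05 (adjusted p = 0.04).

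The lactate exporter MCT4, encoded by Slc16a3, varied more than any other transporter. Its 6 control levels were 12.18, 7.76, 10.00, 11.29, 12.71 and 11.64 in the order of the numbers, and its BMP levels were 10.65, 9.17, 8.12, 8.75, 10.08 and 8.96. Control array 2 was the lowest of all 18, so that its pair differed by 1.41 with BMP while the other 5 pairs differed by -2.68 to -1.54. The mean difference of -1.64 was called with the block only (adjusted p = 0.016, against 0.251 without, limma). That call was lost when all arrays of 2 of the 6 numbers were left out in turn, at most to 0.0729.

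Slc16a1, encoding the lactate carrier MCT1, differed by -0.01 ± 0.21 with BMP and by 0.13 ± 0.21 with CNTF. Slc2a3, encoding the neuronal glucose transporter GLUT3, differed by 0.10 ± 0.29 with BMP and by -0.74 ± 0.29 with CNTF (adjusted p = 0.281 without the block and 0.153 with it, limma). It was higher with BMP than with CNTF in 6 of 6 pairs, by 0.16 to 2.05, and that difference of 0.84 missed the threshold in both fits (adjusted p = 0.1 and 0.061, limma). Without the block it passed with the mean of both Slc2a3 probe sets (0.70, adjusted p = 0.0336), without control array 2 (0.84, 0.0485) and without BMP array 6 (1.01, 0.0412). No transporter was called by limma without the block. Before adjustment, p was under 0.05 for 2 transporters lower with BMP and 1 lower with CNTF.

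The flux regulators held Pdk4, the one gene besides Pfkm called higher with BMP, and their median difference with BMP was 0.07. Pdk4, one of the kinases that shut pyruvate out of the mitochondrial pyruvate dehydrogenase, ranged from 8.02 to 9.29 in controls, median 8.75, from 8.32 to 10.30 with BMP, median 9.76, and from 7.67 to 9.47 with CNTF, median 8.82. Array 4 was the lowest of each group. In 6 of 6 pairs BMP was above control, by 0.30 to 1.72, and the difference of 0.90 passed with the block (SE 0.22, adjusted p = 0.0113) and not without it (SE 0.34, adjusted p = 0.136, limma). Leaving out BMP array 4 brought it past the threshold without the block as well (1.15, adjusted p = 0.0282). The call with the block was lost when all arrays of number 1 were left out (0.82, adjusted p = 0.0515, limma). A dimmer second Pdk4 probe set gave 0.20 (adjusted p = 0.569 with the block, limma).

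Pdk1, the kinase of the same family that HIF-1 is known to raise, went the other way. Its levels ranged from 11.84 to 13.78 in controls, from 11.66 to 12.66 with BMP and from 11.71 to 12.98 with CNTF. With the block it was lower with BMP (-0.77 ± 0.11, adjusted p = 0.000222) and with CNTF (-0.47 ± 0.11, adjusted p = 0.0168, limma), in 6 of 6 pairs each. The CNTF call was lost without CNTF array 3, 5 or 6 (adjusted p up to 0.0556). Its second probe set gave -0.36 and -0.42, both called with the block. Pdk2 was not called against control in either fit, with differences of 0.24 for BMP and -0.26 for CNTF, and was 0.50 higher with BMP than with CNTF with the block (adjusted p = 0.00608, limma).

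Pfkfb3 encodes an enzyme that makes fructose 2,6-bisphosphate, an activator of phosphofructokinase. Its control levels ran from 11.26 to 12.14, its CNTF levels from 12.21 to 12.75 and its BMP levels from 11.12 to 11.93, so that every CNTF array lay above every array of the other groups. CNTF exceeded control by 0.73 ± 0.17 (adjusted p = 0.0237, limma). That call was lost without control array 1, 2 or 3 or CNTF array 5 or 6 (adjusted p = 0.0511 to 0.0701). When all arrays of a number were left out, it was kept for 2 of the 6 numbers (adjusted p up to 0.118, limma). With the block it was kept in all 18 leave-outs of an array and lost without number 3 (adjusted p = 0.0592, limma). A dimmer Pfkfb3 probe set gave 0.85 ± 0.23 (adjusted p = 0.057, and 0.00156 with the block, limma). The dimmest, with a control level of 7.92, gave -0.05 for CNTF against control and 0.16 for BMP against CNTF. BMP was below CNTF, with a difference of -1.0 ± 0.17 (adjusted p = 0.00127, limma). The related Pfkfb2 and Pfkfb4 were called in no comparison in either fit.

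The 10 hypoxia targets and sensors had a median difference of -0.58 with BMP. Without the block 3 fell, against 2.57% of all probe sets. With it 7 (70%) fell, against 7.58% of all probe sets and 12.9% of those at or above the table median. None was called higher, against 3.44% of all probe sets without the block and 9.1% with it. Vegfa, the vascular growth factor and a standard HIF target, had control levels of 14.47, 14.03, 14.37, 14.34, 14.68 and 14.82 in the order of the numbers. With BMP they were 13.35, 12.53, 12.58, 13.55, 13.64 and 13.56, and with CNTF 13.82, 13.17, 13.05, 14.21, 14.03 and 14.01. Every BMP array was below every control array, and every CNTF array lay between its same-numbered BMP and control arrays. The mean was 14.45 ± 0.28 in controls and 13.20 ± 0.51 with BMP (SD, n = 6), a difference of -1.25 ± 0.23 (adjusted p = 0.00257, limma), and no left-out array ended the call. The CNTF difference was -0.73 and passed the threshold only with the block (adjusted p = 0.000656; without it 0.12, limma). A second Vegfa probe set gave -1.04 ± 0.27 for BMP (adjusted p = 0.0278) and -0.63 for CNTF (0.00249 with the block, limma).

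Bnip3 encodes a mitochondrial protein that promotes mitophagy in hypoxic cells. Its levels ranged from 14.11 to 15.10 in controls, from 13.23 to 14.39 with BMP and from 13.89 to 15.03 with CNTF. Control array 2 was the only control inside the BMP range. The BMP difference was -0.85 ± 0.24 (adjusted p = 0.0385, limma) and the 6 pair differences ran from -1.31 to -0.62. Without the block its call was lost when control array 1, 4, 5 or 6 or BMP array 1, 2 or 3 was left out (adjusted p = 0.058 to 0.0996). Leaving out all arrays of a number kept the call for 1 of the 6 numbers (adjusted p up to 0.11, limma). The adjusted p was 0.0536 without the intensity trend and 8.85e-06 with the block (limma). The related Bnip3l was lower too, by -0.37 ± 0.09 with the block (adjusted p = 0.00801, limma), and its second probe set gave -0.45.

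Of the oxygen sensors, Egln1 ranged from 12.52 to 13.43 in controls and from 11.75 to 12.46 with BMP, with no overlap, and from 12.28 to 13.40 with CNTF. The BMP difference was -0.72 ± 0.20 (adjusted p = 0.0327, limma). That call was lost without the same 7 arrays as for Bnip3 (adjusted p = 0.0508 to 0.0836), and not with the block (3.63e-05). When all arrays of a number were left out without the block, the call was kept for 1 of the 6 numbers (adjusted p up to 0.0893, limma). The mean of its probe sets gave -0.36 (adjusted p = 0.12), where the second probe set had a control level of 7.05 and a difference of -0.00.

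Egln3, itself a HIF target, spread more: from 10.44 to 12.78 in controls, from 10.18 to 11.75 with BMP and from 11.05 to 13.10 with CNTF. CNTF exceeded its own control in 6 of 6 pairs by 0.18 to 1.21, and passed with the block (0.76 ± 0.21, adjusted p = 0.0362) and not without it (0.566, limma). The call was kept in 9 of 18 leave-outs, and was lost without control array 1, 2, 3 or 6 or CNTF array 1, 2, 4, 5 or 6 (adjusted p up to 0.109). Against BMP the CNTF arrays were higher in each pair, the BMP minus CNTF difference being -1.35 (adjusted p = 0.000366 with the block and 0.0747 without, limma). With BMP against control Egln3 was not called in either fit (-0.59, adjusted p = 0.538 and 0.0692).

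Ndrg1, a gene known for its strong rise under hypoxia and its role in Schwann cell and oligodendrocyte myelin, ranged from 8.39 to 10.03 in controls and from 10.30 to 12.33 with CNTF, with no overlap. The CNTF difference was 1.95 ± 0.39 (adjusted p = 0.00823, limma), higher in 6 of 6 pairs by 0.94 to 2.86. The call was kept without any single array, and was lost only when all arrays of number 6 were left out (adjusted p = 0.0602). Its second, dim probe set gave 1.11 ± 0.37 (adjusted p = 0.153, limma). With BMP the levels ran from 8.62 to 10.66 and the difference from control was 0.16 ± 0.39, with 3 pairs higher and 3 lower.

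Hif1a, which encodes the oxygen-regulated subunit of HIF-1 and is controlled mainly at the protein level, ranged from 14.67 to 15.14 in controls and from 14.31 to 14.79 with BMP. It was lower in 6 of 6 pairs, with -0.27 ± 0.06 with the block (adjusted p = 0.00549, limma). Ddit4, an inhibitor of mTOR signalling induced by stress, differed by -0.58 ± 0.12 with the block (adjusted p = 0.00399, limma). Adm, which encodes the vasodilator adrenomedullin, was lower with BMP in 5 of 6 pairs, with differences from -1.5 to -1.08, and higher by 1.03 in the pair of number 2, whose control was the dimmest. Its difference of -0.93 passed with the block (adjusted p = 0.0392, limma), and that call was kept in 6 of 18 leave-outs, those of control array 2, BMP array 2 and CNTF arrays 1, 3, 4 and 6, and otherwise lost (adjusted p up to 0.111). P4ha1, a subunit of collagen prolyl hydroxylase, missed the threshold in both treatments, with -0.28 for BMP and -0.32 for CNTF (adjusted p = 0.0549 and 0.0528 with the block, limma).

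**Figure D3:**
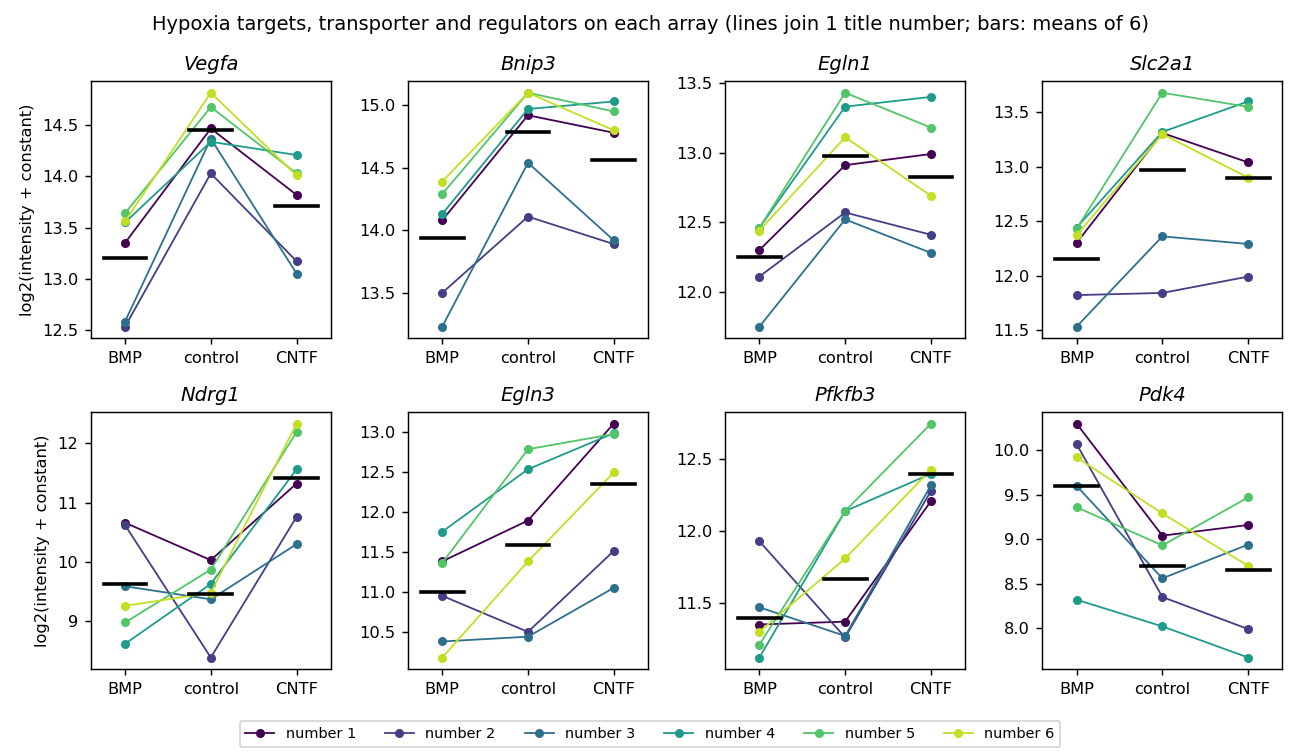
Levels of 5 hypoxia targets and sensors, of the transporter Slc2a1 and of the regulators Pfkfb3 and Pdk4, log2(intensity + constant), on each of 18 arrays; each line joins the arrays of 1 title number and black bars are means of 6. Vegfa and Egln1 show no overlap of BMP and control, Ndrg1 and Pfkfb3 show CNTF above every control, and the Pdk4 lines run up towards BMP.

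HIF-1 binds the letters ACGTG within a longer element, so the stretch before the gene start was searched for ACGTG on both strands. RefSeq windows on build GRCr8, 250 bases before to 50 after a gene's start, were found for 33 of the 37 genes, in 38 windows. A match in at least 1 window was found for 20 of the 33 genes (60.6%), beside 20.9% of all 27457 genes with a window, and in 52.6% of member windows beside 19.3% of all 33469 windows. Of the 19 genes called lower with BMP with the block that had a window, 12 held a match, beside 20 of all 33. Whether a match went with the fall was not tested. The 160 bases before the start are shown for a gene that fell with BMP in the first fit and held a match before the start (Eno2 and Bnip3), for the glucose transporter Slc2a1, and for Pfkfb3, which rose with CNTF. Capitals mark ACGTG read on either strand; where both strands match, the capitals run over the 6 letters CACGTG. The positions on GRCr8 are chr4:159267221-159267380 (minus strand) for Eno2, chr1:203154963-203155122 (minus) for Bnip3, chr5:138002362-138002521 (plus) for Slc2a1 and chr17:71944773-71944932 (plus) for Pfkfb3, each written 5′ to 3′ towards the gene.
Eno2: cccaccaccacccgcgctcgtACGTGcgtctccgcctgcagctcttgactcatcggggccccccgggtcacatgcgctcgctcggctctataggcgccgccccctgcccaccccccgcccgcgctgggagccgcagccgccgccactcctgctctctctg
Bnip3: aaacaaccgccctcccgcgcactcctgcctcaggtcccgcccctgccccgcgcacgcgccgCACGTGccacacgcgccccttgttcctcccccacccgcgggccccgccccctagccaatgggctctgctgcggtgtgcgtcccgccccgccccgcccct
Slc2a1: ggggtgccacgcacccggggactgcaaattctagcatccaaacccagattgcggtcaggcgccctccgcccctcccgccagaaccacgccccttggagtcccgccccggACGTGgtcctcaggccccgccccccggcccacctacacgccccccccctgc
Pfkfb3: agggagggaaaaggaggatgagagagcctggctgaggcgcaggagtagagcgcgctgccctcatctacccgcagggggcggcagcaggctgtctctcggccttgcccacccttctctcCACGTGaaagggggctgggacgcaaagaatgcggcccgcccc
The match began 139 bases before the start in Eno2, 99 in Bnip3, 51 in Slc2a1 and 42 in Pfkfb3. Pfkfb3 and Bnip3, which went with different treatments, both carried the palindrome, and so did the windows of Ldha, Slc16a1, Pdk2 and Hif1a. Of these, Slc16a1 and Pdk2 were not called against control in either fit. Neither of the 2 Vegfa windows held the letters, and Ndrg1 is among the 4 genes with no window. A match is a description of these letters only.

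Much of the spread of these genes within a group went with the title number. Relative to its group's mean, the array of number 2 had a median deviation over the 35 genes of -0.41 in controls, -0.15 with BMP and -0.46 with CNTF, and that of number 3 had -0.24, -0.35 and -0.35. The arrays of number 5 had 0.23, 0.25 and 0.33. Over all probe sets the same medians lay between -0.06 and 0.03. Control array 2 was the lowest control for 22 of the 35 genes, and BMP array 3 was the lowest BMP array for 17. Numbers 2 and 3 were thus low in every group in the median over the 35 genes, but not in each role. For the 6 flux regulators the medians were 0.09 in BMP array 2, 0.04 in BMP array 3 and 0.04 in CNTF array 3. The regulators' lowest array was number 4 in each group, at -0.29 in controls, -0.28 with BMP and -0.39 with CNTF.

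In each of the 6 pairs the enzymes' median BMP difference was negative, from -0.26 in number 5 to -0.54 in number 3, and that of the hypoxia genes ran from -0.37 in number 2 to -0.85 in number 5. For the transporters, number 2 differed from the rest: its median was 0.81, and the other 5 lay between -1.0 and -0.43. Some genes also split by number in their BMP difference. Ndrg1 was higher with BMP in numbers 1, 2 and 3 (0.64, 2.23 and 0.23) and lower in 4, 5 and 6 (-1.0, -0.89 and -0.22). Slc2a3 showed the same signs (0.16, 2.15 and 0.21, then -0.15, -0.76 and -0.99). Pfkfb3 was near or above its control in numbers 1, 2 and 3 (-0.02, 0.66 and 0.20) and below it in 4, 5 and 6 (-1.02, -0.93 and -0.51). This split was seen in the values and was not tested.

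**Figure D4:**
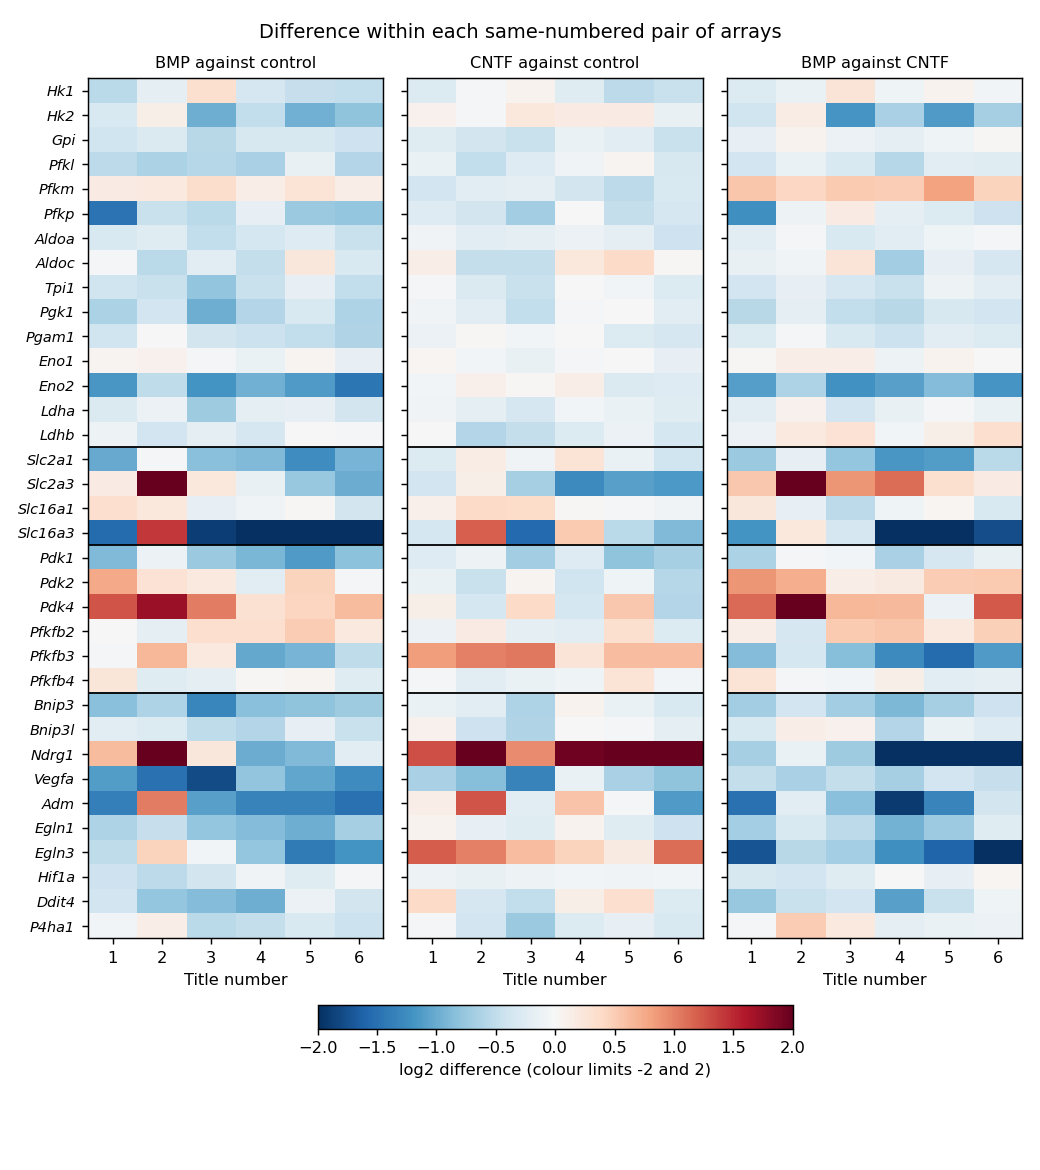
Difference within each same-numbered pair of arrays for the 35 tested genes, on the log2 scale, for BMP and for CNTF relative to control and for BMP relative to CNTF; blue is lower and red higher in the treatment named first, columns are title numbers, and black lines part the 4 roles. Rows such as Eno2, Vegfa, Bnip3 and Egln1 are blue across all 6 BMP columns, Pfkm and Pdk4 are red, and column 2 is red for Slc2a3, Slc16a3, Ndrg1 and Adm.

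Further genes of the same pathways were mixed with BMP. Of 24 measured further genes of glucose metabolism, 1 rose without the block, against 3.44% of all probe sets. This was Slc2a4, the insulin-responsive GLUT4, by 1.10 ± 0.30 (adjusted p = 0.0337, limma), and it was also above CNTF by 1.73. With the block 1 of the 24 was called higher, again Slc2a4, against 9.1% of all probe sets. With the block 4 (16.7%) were lower, against 7.58% of all probe sets and 12.9% of those at or above the table median. These were Mpc2, Pdha1, Pdhb and Tkt, with differences from -0.28 to -0.17. The median of the 24 was -0.01. Of 23 measured further hypoxia genes, none was called with BMP without the block (limma). Over all probe sets 2.57% were called lower and 3.44% higher in that fit. Among the 23, 7 were lower and 1 was higher at an unadjusted p under 0.05. With it 7 were lower (30.4%, against 7.58% of all probe sets and 12.9% of those at or above the table median). Another 2 were called higher with it, against 9.1% of all probe sets, and the median of the 23 was -0.10. The lower ones were Epas1 (-0.84), which encodes HIF-2 alpha, Bhlhe40 (-0.77), Tfrc (-0.74), Ankrd37 (-0.68), Ero1a (-0.62), Kdm3a (-0.34) and Insig2 (-0.30), and the higher ones were Cited2 (0.49), an inhibitor of HIF, and Vhl (0.15), which marks HIF for degradation. Epas1 had mean levels of 11.80 in controls, 10.96 with BMP and 12.55 with CNTF. BMP was below CNTF for Epas1 (-1.58 ± 0.34, adjusted p = 0.00661) and for Bhlhe40 (-1.02 ± 0.26, adjusted p = 0.0227, limma) without the block.

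Markers of other cell types moved with both treatments; calls are without the block unless stated. With BMP, all 5 oligodendrocyte precursor markers (Pdgfra, Cspg4, Olig1, Olig2 and Sox10) fell, with differences from -2.16 for Olig2 to -1.26 for Olig1. Of 4 measured oligodendrocyte markers 2 fell with BMP (Mag and Cnp) and Mbp was also lower with the block (adjusted p = 0.000533, limma), with sums of 55558 to 161619 in controls, 13552 to 75735 with BMP and 67258 to 184238 with CNTF. Of 7 astrocyte markers Aqp4 rose with BMP, by 2.33, and Gfap was also higher with the block (2.33, adjusted p = 0.0169, limma). Aldh1l1 and Slc1a3 had BMP differences of -0.96 and -0.17 and were not called. With CNTF Gfap rose by 3.96 ± 0.78 (adjusted p = 0.00708, limma), and with the block Aqp4 was higher (1.91) and Aldh1l1 lower (-1.40, adjusted p = 0.0301). The astrocyte sums were 93031 to 168014 in controls, 123165 to 223842 with BMP and 151330 to 264524 with CNTF. Of 5 fibroblast and smooth muscle markers Col1a2 rose with BMP, and 3 of 5 were higher with the block, with sums of 1594 to 5394 in controls, 5826 to 38415 with BMP and 1296 to 8445 with CNTF. Of 5 neuronal markers Nefl rose with BMP, and all 5 were higher with the block (adjusted p from 0.000206 for Nefl to 0.0154 for Rbfox3, limma), with sums of 9259 to 16092, 12045 to 32372 and 7781 to 19785. Of 3 endothelial markers Tek rose with BMP, with dim sums of 88 to 375, 186 to 842 and 156 to 511. Sums of 3 cell division markers spread widely, at 1827 to 67827 in controls, 11584 to 57694 with BMP and 10550 to 61410 with CNTF. The part of all these markers in the differences of the enzymes, transporters, regulators and hypoxia genes was not tested. In such samples fewer cells of a type and less RNA per cell cannot be told apart.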

How the data were processed

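The members and lists were chosen with earlier results of these data known. The deposited table holds intensities on a linear scale for 31099 probe sets and 18 arrays. How they were summarised is not stated in any label or header; from the values, the mean of each array after trimming 2% at each end is 2500.7 to 2500.8, a common value whose origin no header records. From these deposited intensities log2(intensity + 116.655) was computed. limma 3.58.1 in R 4.3.3 (lmFit, eBayes with an intensity trend) was fitted over all 18 arrays, leaving out 57 Affymetrix control probe sets, and tested on simulated data; the number of arrays limits precision. The alternative fit had the title number as a block. Deviations from group means correlated in all 18 same-numbered pairs (r = 0.121 to 0.491; median of 90 other pairs -0.0915), so the numbers pair the samples; where this comes from the labels do not say. Symbols came from the platform annotation; all 35 matched RefSeq by identifier.

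Named genes are 16 members named whatever their values (15 of them valued: Hk2, Pfkp, Aldoa, Gapdh, Pgk1, Ldha, Slc2a1, Slc16a1, Pdk1, Pfkfb3, Bnip3, Ndrg1, Vegfa, Egln3 and Hif1a), those called in either fit and those moving one way in all pairs; Aldoc, Eno1, Pfkfb2 and Pfkfb4 were added after their values were seen. Alternatives were a pseudocount of 1 or 500, quantile normalization, leaving out dim probe sets, only the 2 groups compared, no trend, the mean of a gene's probe sets, and leaving out arrays or numbers; leaving out arrays with the block was added after seeing the data.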

Additional observations from a re-analysis of the deposited data

Results flagged for a closer look

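Of 108 sets of 6 levels examined for an array far from the rest (35 tested genes and Gapdh, 3 groups each), 1 stood out: Pdk2 in BMP array 4, at 10.78, where the other BMP arrays lay between 11.74 and 12.28. Chance gives about 1 in 20 such sets. Array 4 was also the dimmest for Pdk2 among the controls and among the CNTF arrays (10.60).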

How the results depend on the processing

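With the title number as a block, members called rose from 4 to 23 for BMP against control, from 2 to 9 for CNTF against control and from 4 to 20 for BMP against CNTF; the call of no member called without the block was lost. Leaving out an array or a number gave 2 to 7 called for BMP against control (7 without control array 2), 0 to 2 for CNTF against control (0 without number 6) and 3 to 6 for BMP against CNTF; with the block the ranges were 19 to 24, 5 to 11 (5 without CNTF array 6 or number 6) and 16 to 22. Of members called with the block, 20 of 23, 5 of 9 and 17 of 20 stayed called without any single array. When whole numbers were also left out in turn, 17 of 23, 4 of 9 and 15 of 20 stayed called throughout. Without the block, 2 of 4, 0 of 2 and 2 of 4 stayed called in all these leave-outs. The flux regulators' median for BMP against control went from 0.07 to -0.16 when dim probe sets were left out. For BMP against CNTF it went from 0.12 to -0.16 in that setting and to -0.04 with the mean of all probe sets. The transporters' median for CNTF against control went from -0.17 to -0.60 without control array 2, with a leave-out range of -0.60 to 0.11. The cause was not tested. The other list medians kept their sign in all alternatives run, except that the flux regulators' CNTF median ran from -0.16 to 0.03 in leave-outs. No named call changed direction. Pfkm between BMP and CNTF (0.32) and Egln1 with BMP (-0.36) lost their calls with the mean of all probe sets, and Bnip3 with BMP (-0.85) without the trend. Calls were gained for Slc2a3 between BMP and CNTF with the mean of all probe sets (0.70), and without 1 array for Slc2a1, Pdk1 and Adm (control 2), Pdk4 (BMP 4), Pfkl (BMP 5) and Ddit4 (BMP 6) with BMP, and for Slc2a3 (control 2 or BMP 6), Egln1 and Egln3 (CNTF 3) and Pdk2 and Pdk4 (BMP 4) between BMP and CNTF.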
